A study of Mus musculus with 6 samples.

Results

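Alpha and beta tubulin are the paired subunits of microtubules, and the mouse genome encodes each as a family of isotypes. Described here are 10 such genes, the beta isotypes Tubb5, Tubb4b, Tubb6, Tubb2a, Tubb2b and Tubb3 and the alpha isotypes Tuba1b, Tuba1c, Tuba4a and Tuba1a. The members were taken by symbol from the authors' deposited table of 15982 genes. The family was chosen by the adjusted p and log2 change of Tubb6 between Bub1 cKO and Ctrl in that table, so those values are given as a description. A row was found for 9 of the 10, 5 beta and 4 alpha. For Tubb3, the beta isotype best known from neurons, no row was found, and it was not analysed here.

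The cells were primary mouse bone marrow-derived macrophages (BMMs), the precursors of osteoclasts, from control mice (Ctrl) and from mice with a myeloid-specific knockout of Bub1 (Bub1 cKO), a kinase of the spindle checkpoint. The sources used here do not name the allele, the Cre line, the age or the sex of the mice. Both genotypes were given M-CSF, on which macrophages grow, for 3 days (20 ng/ml), and M-CSF (20 ng/ml) plus RANKL (50 ng/ml), the cytokine that induces osteoclasts, for 2 further days. The labels list 3 libraries per genotype, made from the 3' ends of transcripts, without saying whether they came from separate animals or cultures, so the authors' errors and p-values may measure technical spread. The authors' deposited table holds 1 value per gene and genotype, in TPM (transcript abundance scaled to a fixed total), with a log2 change and a test. Values per library were not used here, and the depth of the libraries is unknown. The authors' deposited table puts Bub1 itself at 6.73 TPM (Ctrl) and 5.32 TPM (Bub1 cKO), with an adjusted p of 0.985. This does not check the labels, because the deleted exons are unknown and a 3' tag may lie outside them.

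Microtubules grow and shrink by adding and losing alpha-beta dimers, and they carry vesicles, position organelles and build the mitotic spindle. In osteoclasts they also steer the podosomes, the actin-based contacts that form the sealing ring on bone, and the beta isotype Tubb6 is known to take part in organising both systems there. Cells hold tubulin levels in check by autoregulation: when free dimers are abundant, the factor Ttc5 recognises the first residues of the new tubulin chain on the ribosome and the messenger RNA is degraded. The isotypes differ least in their globular body and most in the acidic tail at the end of the protein, where many modifying enzymes and motors bind.

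The coding sequences of the members bear on both features, and stretches of them are printed to show what the isotypes share and where they differ. They come from the GENCODE M21 reference transcripts (GRCm38), spliced, from the first coding base on, with the first 4 codons, the part read by autoregulation, in capitals. The sequence of Tubb6 is not shown.
Tubb5: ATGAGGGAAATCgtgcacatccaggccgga
Tubb4b: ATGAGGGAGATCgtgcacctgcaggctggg
Tubb2a: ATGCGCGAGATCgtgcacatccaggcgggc
Tubb2b: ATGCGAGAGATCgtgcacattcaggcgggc
Tuba1b: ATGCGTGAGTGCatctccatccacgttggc
Tuba1c: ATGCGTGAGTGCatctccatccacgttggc
Tuba1a: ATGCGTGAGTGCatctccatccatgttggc
Tuba4a: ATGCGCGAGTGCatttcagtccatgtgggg
All 6 beta genes, Tubb6 and Tubb3 included, encode the same 4 residues here through 5 different spellings, and all 4 alpha genes encode their own 4 residues through 2 spellings. Any beta gene differs from any alpha gene by 2 to 5 of these 12 bases.

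The last 60 coding bases before the stop codon encode the tail. They are given for the beta isotypes, with capitals at each base that differs from Tubb5, or has no partner in it, in a pairwise alignment.
Tubb5: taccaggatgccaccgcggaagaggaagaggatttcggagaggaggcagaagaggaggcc
Tubb4b: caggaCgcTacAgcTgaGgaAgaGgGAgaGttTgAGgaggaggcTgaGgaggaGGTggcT
Tubb2a: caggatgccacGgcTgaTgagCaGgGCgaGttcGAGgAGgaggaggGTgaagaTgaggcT
Tubb2b: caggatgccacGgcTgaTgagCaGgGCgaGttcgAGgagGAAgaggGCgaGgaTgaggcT
By this count Tubb4b, Tubb2a and Tubb2b differ from Tubb5 at 19, 17 and 18 bases. The 5 pairs of Tubb6 with another beta gene had a median identity of 45.0% over these 60 bases (range 41.7% to 55.6%), and 83.2% over the whole coding sequence. The pairs of Tubb3 ran from 40.0% to 49.2% over the 60 bases, so a low identity there is not particular to Tubb6. Among all 15 beta pairs the medians were 51.5% and 83.4%, and the closest pair, Tubb2a and Tubb2b, was 96.5% identical over the coding sequence. Tuba1a, Tuba1b and Tuba1c are closer still, at 97.1% to 98.3% identity, while Tuba4a was 84.7% to 85.2% identical to each of them. Not every pair differs most in the tail: Tuba1b and Tuba1a were 98.3% identical over the last 60 bases and 98.3% over the rest.

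These identities bear on how far the values of single isotypes can be separated. In the last 500 bases of the reference transcript, from which a 3' tag library mostly reads, none of the 451 words of 50 bases of Tubb6, Tubb5, Tubb2b or Tuba4a occurs in the transcript of another gene. Of the words of Tuba1b, Tuba1c and Tuba1a, 63.6%, 68.3% and 56.3% occur in one another or in other gene models, and of those of Tubb2a and Tubb4b 42.4% and 35.3% occur elsewhere. All of the shared words touch the coding sequence: of the words wholly behind the stop codon, 0 of 108 in Tuba1b, 0 of 52 in Tuba1c and 0 of 148 in Tuba1a are shared. The sources used here give neither the read length nor the handling of reads that match several genes, so the split among the 3 Tuba1 genes is uncertain. Gm49450, a gene model for which no row was found, overlaps Tuba1b by 2429 and Tuba1a by 3715 bases on the same strand. Its bearing on their values was not tested. Tuba4a (chromosome 1, 75214228 to 75219865, minus strand, GRCm38) overlaps Stk16 by 1379 bases on the opposite strand. Whether the counting used strand is not given, and Stk16 stood at 25.3 (Ctrl) and 27.9 TPM (Bub1 cKO) by the authors' deposited table. Gm20388, a gene model that spans Tubb3 on the same strand, was at 4.10 and 1.35 TPM by the authors' deposited table, and how much of it stems from Tubb3 was not tested.

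Tubb6 was the one isotype that passed the threshold of the authors' deposited table, an adjusted p under 0.05. This is 1 of 9 members higher and 0 lower, beside 0.113% and 0.0688% of all 15982 genes (0.181%, or 29 genes, both ways). Since this call chose the family, nothing is read from the count. Tubb6 (ENSMUSG00000001473.6, chromosome 18, 67390717 to 67402749, plus strand, 4 exons) has 48.5 TPM (Ctrl) and 111 TPM (Bub1 cKO) by the authors' deposited table, which is 2.30-fold higher in Bub1 cKO. The authors' deposited table gives it a log2 change of 1.19, an adjusted p of 0.00069 and a standard error of 0.24. Multiplying the deposited statistic by its standard error gives the change estimated by the test, called the test's own log2 change below. It was 1.21 with a 95% interval from 0.75 to 1.67. The standard error of Tubb6 was close to the median of 0.26 over the 787 genes within 1.5 times its mean level. As a level, Tubb6 lay above 92.1% of the genes of the table.

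**Figure D1:**
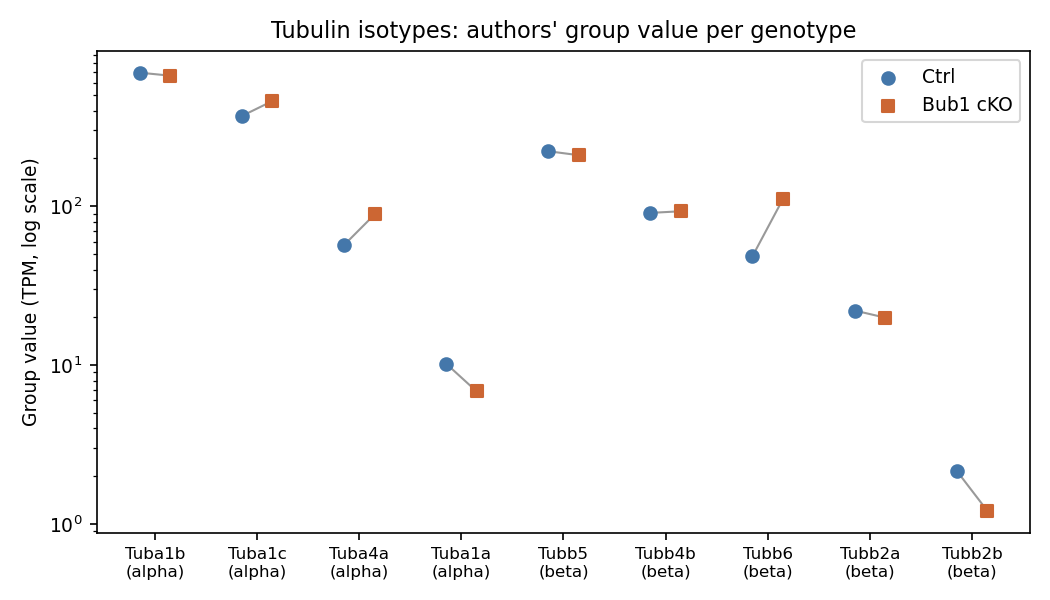
The authors' group value of each tubulin isotype in TPM, on a log axis, with circles for Ctrl and squares for Bub1 cKO, 1 value per genotype. Tubb6 goes from 48.5 to 111 TPM, while Tuba1b, the highest isotype, stands at 693 and 664 TPM.

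None of the other 4 beta isotypes with a row passed. Tubb5, the main beta tubulin of dividing cells, was the highest of them at 222 (Ctrl) and 210 TPM (Bub1 cKO) by the authors' deposited table. Its test's own log2 change was -0.07 with a 95% interval from -0.29 to 0.14, and changes beyond these bounds lie outside it. Tubb4b, a broadly expressed isotype also used in cilia, was at 90.9 and 93.1 TPM by the authors' deposited table, with an interval from -0.35 to 0.43. Tubb2a, known mainly from brain, was at 22.1 and 19.9 TPM by the authors' deposited table (interval -0.76 to 0.50). Its near copy Tubb2b had the lowest level, at 2.16 and 1.21 TPM by the authors' deposited table, and its interval from -2.79 to 1.05 allows large changes both ways. Adjusted p was 0.985 for each of these 4 genes by the authors' deposited table.

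Among the alpha isotypes, 2 of 4 stood higher in Bub1 cKO at an unadjusted p under 0.05, and 0 passed the adjusted threshold. Tuba4a, an alpha isotype of platelets and muscle whose gene lacks the terminal tyrosine codon of most alpha tubulins, was at 56.9 (Ctrl) and 88.8 TPM (Bub1 cKO) by the authors' deposited table. The log2 change of Tuba4a was 0.63 by the authors' deposited table (standard error 0.21, unadjusted p = 0.014, adjusted p = 0.775), and the test's own change was 0.50 (95% interval 0.10 to 0.91). Tuba1c, an alpha isotype of many dividing cells, was at 370 and 460 TPM by the authors' deposited table, with log2 change 0.31, standard error 0.13, unadjusted p = 0.012 and adjusted p = 0.754. Tuba1b, the most abundant tubulin here, was at 693 and 664 TPM by the authors' deposited table, and its interval ran from -0.25 to 0.14. Tuba1a, the main alpha tubulin of neurons, was low at 10.2 and 6.84 TPM by the authors' deposited table (interval -1.53 to 0.44). At the unadjusted threshold the whole family had 3 members higher and 0 lower, beside 2.35% and 2.46% of all genes. These 3 include Tubb6, by which the family was chosen. Without Tubb6, 2 of 8 were higher and 0 lower.

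**Figure D2:**
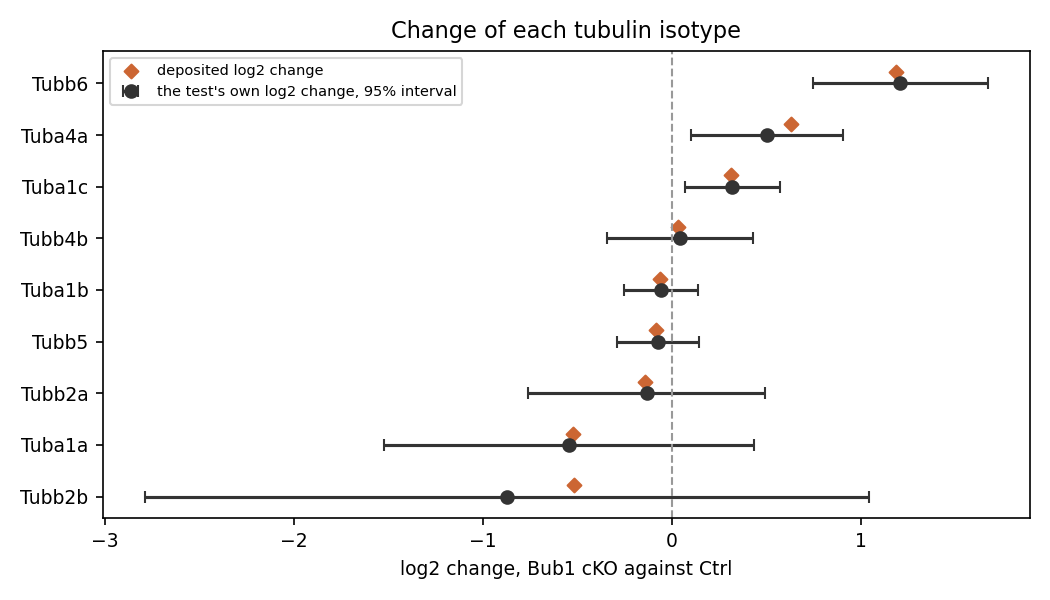
The change of each isotype between Bub1 cKO and Ctrl on the log2 scale, with the test's own change as circles, its 95% interval as bars and the deposited log2 change as diamonds. Tubb6 has the highest value, and the interval of Tubb2b is the widest.

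The signs of the isotypes were mixed. Of the 9, 4 had a positive and 5 a negative statistic, beside 49.9% and 50.1% of all genes, and their median log2 change was -0.06, beside -0.01 over all genes of the table. The difference between Tubb6 and any other isotype was not tested, because it needs values per library. The deposited and the test's own log2 change agreed in sign in all 9 members and differed by less than 1 standard error in each.

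**Figure D3:**
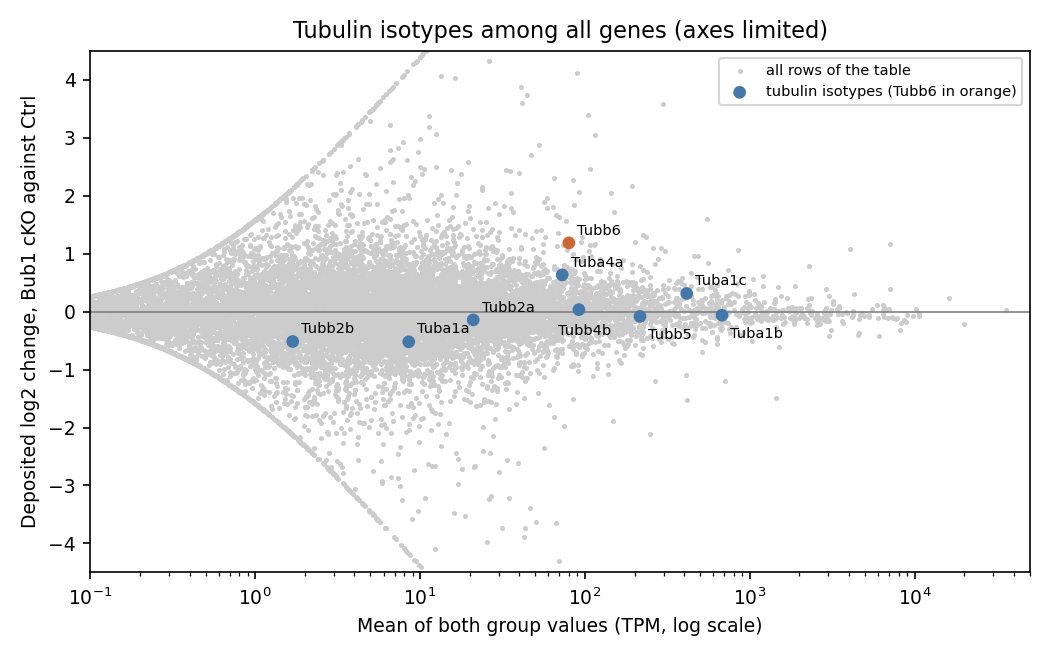
The deposited log2 change of every gene against the mean of both group values in TPM (log axis), in grey, with the 9 tubulin isotypes in colour. The axes leave out genes with a mean under 0.1 TPM or a change beyond 4.5, and Tubb6, at a mean of 80.0 TPM and a change of 1.19, lies above the other isotypes.

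The make-up of the tubulin messenger RNA was compared as each isotype's share of the summed TPM. TPM divides reads by transcript length: among 235 genes seen only in Ctrl with one and the same statistic and standard error, as genes of equal read counts would have, the value fell with transcript length (Spearman's rho = -0.99 across genes, which share depth and library). In a 3' library this division lowers long transcripts, so the shares were also computed from values multiplied by the length of the reference transcript. That removes only a fall in proportion to length. On log axes the slope was -1.71 over the 235 genes, steeper than proportion. It was -1.26 over the 33 of them with transcripts as long as those of the isotypes. Among 209 such genes seen only in Bub1 cKO the slope was -1.69, and -1.003 over the 23 of isotype length. At isotype length the division may thus be removed only in part by the Ctrl genes, and nearly in full by the Bub1 cKO genes. Summed over the 9 members, tubulin stood at 1516 (Ctrl) and 1654 TPM (Bub1 cKO), 0.152% and 0.165% of the table. The share of Tubb6 was 3.20% in Ctrl and 6.74% in Bub1 cKO, 3.54 percentage points more. With values multiplied by length it was 2.86% and 6.0%.

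Within the beta pool the share of Tubb6 was 12.6% in Ctrl and 25.6% in Bub1 cKO, or 9.92% and 20.97% with values multiplied by length. Tubb5 made up 57.6% and 48.2% of the beta pool, Tubb4b 23.6% and 21.4%, Tubb2a 5.73% and 4.58% and Tubb2b 0.561% and 0.278%. In Ctrl Tubb4b stood at 1.87 times the TPM of Tubb6, and in Bub1 cKO at 0.835 times, so the order of these isotypes was the opposite in the deposited values. The beta pool went from 386 to 435 TPM, a difference of 49.6 TPM, with 63.0 TPM more Tubb6 and a difference of -13.4 TPM over the other 4 beta genes together. These sums and shares rest on 1 value per genotype and have no error of their own.

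**Figure D4:**
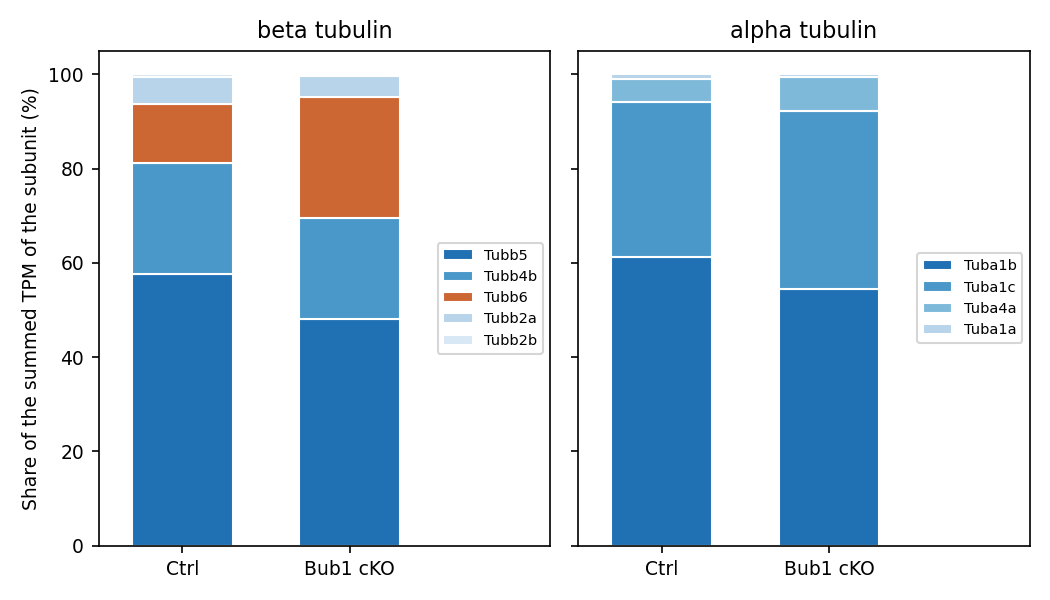
Stacked bars of each isotype's share, in percent, of the summed TPM of its own subunit in Ctrl and Bub1 cKO, from the authors' group values. The share of Tubb6 (orange) in the beta pool is 12.6% in Ctrl and 25.6% in Bub1 cKO.

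In the alpha pool, Tuba1b and Tuba1c together held 94.1% in Ctrl and 92.2% in Bub1 cKO. Tuba1b took 61.3% and 54.4% of the pool, Tuba1c 32.7% and 37.7%, Tuba4a 5.03% and 7.29% and Tuba1a 0.906% and 0.561%. The pool went from 1130 to 1219 TPM, a difference of 88.6 TPM, with 89.8 TPM more Tuba1c, 31.9 TPM more Tuba4a and -29.7 TPM for Tuba1b. The ratio of Tuba1b to Tuba1c was 1.88 in Ctrl and 1.44 in Bub1 cKO, and it depends on how reads shared by these near copies were assigned. Summed alpha stood at 2.93 times summed beta in Ctrl and 2.80 times in Bub1 cKO, in TPM.

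The order of the levels was nearly the same in both genotypes. In Ctrl it ran Tuba1b, Tuba1c, Tubb5, Tubb4b, Tuba4a, Tubb6, Tubb2a, Tuba1a and Tubb2b by TPM. In Bub1 cKO Tubb6 stood in place 4, ahead of Tubb4b and Tuba4a, against place 6 in Ctrl. With values multiplied by length Tuba4a, at 7.72% of summed tubulin in Bub1 cKO, was ahead of Tubb6. No spread over libraries can be set beside neighbours in this order, so it is not known which of them differ beyond it.

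Other genes of tubulin and microtubule biology gave no further call. Of 10 further tubulin genes, 7 were not analysed here, as no row was found (Tubb1, Tubb4a, Tuba3a, Tuba3b, Tuba8, Tubal3 and Tubg2). Of the 3 with a row 0 passed the adjusted or the unadjusted threshold. They include Tubg1, the gamma-tubulin that nucleates microtubules, at 14.1 (Ctrl) and 9.46 TPM (Bub1 cKO) by the authors' deposited table, and the centriolar Tubd1, at 0.608 and 5.55 TPM. Adjusted p was 0.985 for both by the authors' deposited table.

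Newly made tubulin is folded by prefoldin and the CCT chaperonin and assembled into dimers by the cofactors Tbca to Tbce. Of 21 such genes with a row 0 passed the adjusted threshold, and 2 were higher and 0 lower at the unadjusted one. Of all genes, 2.35% were higher and 2.46% lower at the unadjusted threshold, shares that stand beside the counts of the lists below too. The statistic was positive in 14 and negative in 7 of the 21, and the median log2 change was 0.08, beside -0.01 over all genes. In 3 of the 21 the statistic and the deposited log2 change have opposite signs, so no direction is given for the list. The CCT subunit Tcp1 was at 79.3 and 101 TPM by the authors' deposited table, with log2 change 0.34, standard error 0.15 and adjusted p = 0.642. Cct3, another CCT subunit, was at 372 and 504 TPM by the authors' deposited table (log2 change 0.43, adjusted p = 0.893), and the prefoldin subunit Pfdn6 at 87.8 and 121 TPM (adjusted p = 0.985).

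The 3 genes listed for tubulin autoregulation were Ttc5, which recognises the nascent chain, and Scaper and Cnot11, which link it to deadenylation. None passed the adjusted or the unadjusted threshold. Ttc5 was at 1.87 and 4.52 TPM, Cnot11 at 19.8 and 24.7 TPM and Scaper at 17.0 and 15.8 TPM by the authors' deposited table. The statistic of Scaper (1.48) has the opposite sign to its deposited log2 change (-0.10), so no direction is given for it.

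Among 17 tubulin-modifying enzymes with a row, which add or remove acetyl, tyrosine, glutamate or glycine groups, 0 passed the adjusted threshold, with 1 higher and 0 lower at the unadjusted one. The statistic was positive in 12 and negative in 5, and the median of the deposited log2 changes was 0.28. In 1 of the 17 the statistic and the deposited log2 change have opposite signs, so no direction is given for the list. Agtpbp1, a carboxypeptidase that removes glutamates from tubulin tails, was at 80.8 and 120 TPM by the authors' deposited table, with log2 change 0.56, standard error 0.42 and adjusted p = 0.985. The deacetylase gene Hdac6 was at 0.668 and 2.09 TPM and the glycylase gene Ttll3 at 3.05 and 0.178 TPM by the authors' deposited table, both with an adjusted p of 0.985. The 1 enzyme past the unadjusted threshold, Ttll11, falls outside the rule for named genes and was picked out after its value was seen. Ttll11 was listed at 0 TPM in Ctrl and at 0.886 TPM in Bub1 cKO by the authors' deposited table.

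Of 24 microtubule-associated proteins with a row, 0 passed the adjusted threshold, with 1 higher and 0 lower at the unadjusted one. The statistic was positive in 14 and negative in 10 of them, and the median of the deposited log2 changes was -0.03. In 4 members (Mapre2, Mapre3, Clasp1 and Ckap5, named after their values were seen) the statistic and the deposited log2 change have opposite signs, as in 1519 of the 15982 rows of the table, so no direction is given for the list. Stmn1 encodes stathmin, which binds free dimers and favours shrinkage. It was at 207 and 164 TPM by the authors' deposited table, with log2 change -0.33, standard error 0.17 and adjusted p = 0.985. The plus-end protein gene Clip2 was at 0.643 and 6.02 TPM by the authors' deposited table (log2 change 2.10, adjusted p = 0.696), and the microtubule-binding Mtus1 at 3.01 and 1.04 TPM (adjusted p = 0.985).

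For severing and nucleation, 17 genes had a row, 0 passed the adjusted threshold, and 0 were higher and 1 lower at the unadjusted one. The statistic was positive in 6 and negative in 11, with a median log2 change of -0.14. In 2 of the 17 the statistic and the deposited log2 change have opposite signs, so no direction is given for the list. Pericentrin, the centrosome scaffold encoded by Pcnt, was at 8.76 (Ctrl) and 5.61 TPM (Bub1 cKO) by the authors' deposited table, with log2 change -0.56, standard error 0.26 and adjusted p = 0.767. Nedd1, which recruits the gamma-tubulin ring, was at 5.72 and 1.80 TPM and the ring subunit Tubgcp4 at 8.23 and 4.97 TPM by the authors' deposited table, both with an adjusted p of 0.985. At the unadjusted threshold 4.81% of all genes passed.

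**Figure D5:**
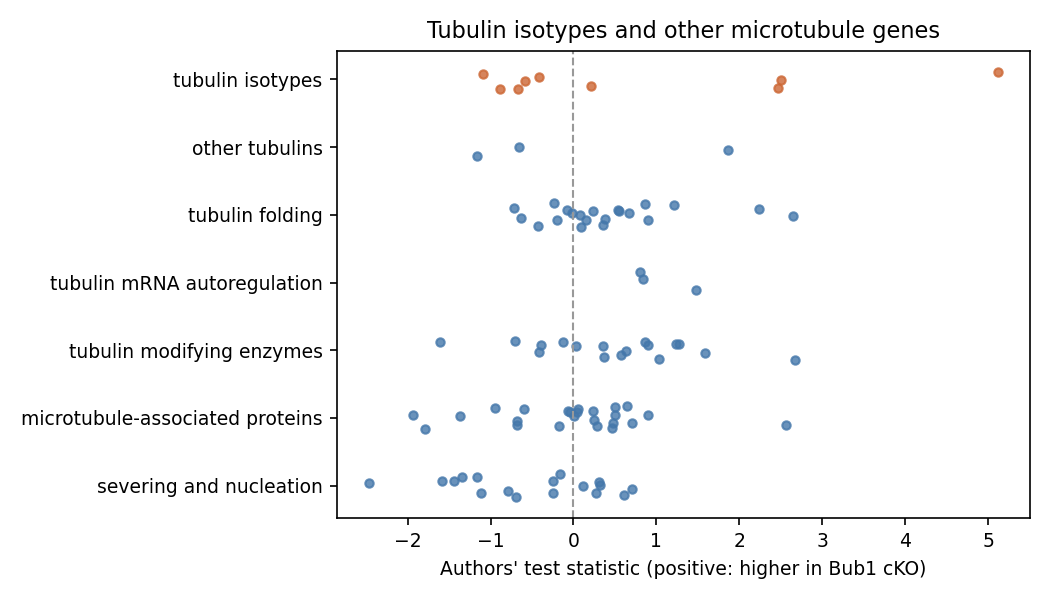
The authors' test statistic of each tubulin isotype (orange) and of the genes in 6 lists of microtubule biology (blue). Positive values mean higher in Bub1 cKO by the test. In some genes of the lists, such as Scaper, the deposited log2 change has the opposite sign. Tubb6 is the point at 5.12, and no gene of the 6 lists reaches it.

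The genes whose change was most like that of Tubb6 were taken, by a set rule, from the 20 other genes past the adjusted threshold with a mean of at least 10 TPM, over the 2 group values. By distance in log2 change they were Tfrc, the transferrin receptor (distance 0.08), Itgav, the alpha-V integrin (0.09), the transporter Slc16a6 (0.15), Dot1l, which methylates histone H3 (0.41), and Lpcat1, a lysophospholipid acyltransferase (0.49). With 2 values per gene this likeness is only that of 1 ratio.

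Markers were used to check the cells and to see what else moved in the same comparison. Of all genes, 0.113% were higher and 0.0688% lower at the adjusted threshold, and 2.35% and 2.46% at the unadjusted one. All 7 macrophage markers had a value above 0 in both genotypes, summed at 2600 (Ctrl) and 1220 TPM (Bub1 cKO). The difference was that of Lyz2, at 2141 and 762 TPM by the authors' deposited table and the 1 that passed; without it the sums were 459 and 458 TPM. At the unadjusted threshold 1 macrophage marker was higher (Cd68) and 3 were lower (Lyz2, Csf1r and Itgam). All 8 osteoclast markers were above 0 too, summed at 1882 and 2169 TPM. None of the 8 passed the adjusted threshold, and 4 were higher and 0 lower at the unadjusted one (Nfatc1, Ocstamp, Ctsk and Acp5). Nfatc1, the master transcription factor of osteoclast formation, was at 48.7 and 73.3 TPM by the authors' deposited table (adjusted p = 0.094). In bulk RNA, more cells of a type and more RNA per cell cannot be told apart. The 5 erythroid markers with a row summed to 19.6 and 358 TPM (2 passed, both higher), with Alas2 listed at 0 in Ctrl. The 8 neutrophil markers with a row summed to 95.7 and 232 TPM (1 passed, higher), with Elane and Camp listed at 0 in Ctrl. Most of both sums was S100a8 (41.9 and 92.8 TPM) and S100a9 (38.0 and 115 TPM by the authors' deposited table), which did not pass. Ltf was lower in Bub1 cKO by TPM, at 12.3 and 6.74 by the authors' deposited table, while its statistic was positive (0.22). Tuba4a is also a tubulin of platelets and their precursors. The 5 megakaryocyte markers with a row summed to 266 and 291 TPM, nearly all of it Pf4. Without Pf4 the sums were 0.592 (Ctrl) and 2.81 TPM (Bub1 cKO), and Gp9 and Gp1bb were listed at 0 in Ctrl. Neuronal markers, of interest because of Tuba1a and Tubb2b, summed to 0.220 and 0.191 TPM over the 3 with a row, Snap25 and Elavl3 being listed at 0 in Ctrl and Map2 in Bub1 cKO. Fibroblast markers summed to 3.86 and 4.85 TPM over 6 genes, with Pdgfrb listed at 0 in Ctrl. The part of these cells in the values of Tubb6, Tuba1c and Tuba4a was not tested.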

How the data were processed

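RNA from 6 libraries, 3 per genotype, was made into 3' tag libraries from 25 ng of total RNA, per the labels' protocols. The authors deposited 1 table, whose first line names RaNA-seq, a web service. No aligner, genome build, annotation or test is named: not given in the sources used here. Expression is in TPM as deposited (columns sum to 999891 in Ctrl and 999954 in Bub1 cKO). The deposited log2 change equals log2((Bub1 cKO + 1)/(Ctrl + 1)) within 0.002 in 15982 rows. The authors' standard error and statistic are scores from the test the authors ran, and the p-value and adjusted p as deposited. The precision stated is the authors' standard error, since the depth per library is unknown.

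Computed here, with Python 3.11.15 and pandas 2.3.3, were sums, shares, intervals (95%, the statistic times the standard error, plus and minus 1.96 standard errors) and counts. Of the 15982 gene IDs, 99.5% were found in GENCODE M21 and 91.4% with the same version, and Tubb6 differs in version. Coding sequences were aligned with Biopython 1.88. The adjustment of p and the sequence identity were tested on simulated data, and the sums, shares and intervals were not. Members and lists were chosen with earlier results of these data known. From each list up to 3 genes of at least 1 TPM with the smallest p are named. No library could be left out and no model refitted.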

Additional observations from a re-analysis of the deposited data

How the results depend on the processing

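With a threshold of 0.1 on the adjusted p, or with p adjusted again over genes whose mean reached 1 TPM or 5 TPM, 1 of the 9 isotypes passed, as with the deposited values. These settings are looser for Tubb6, whose adjusted p helped choose the family, so they do not test its call. Over all genes the threshold of 0.1 gave 44 calls, against 29 with the deposited values at 0.05. Adjusting p again gave 37 calls among the genes whose mean reached 1 TPM, and 38 among those that reached 5 TPM. Both of these counts are out of fewer genes than the 29, so they are not directly comparable with it. The log2 changes of the 9 isotypes moved by less than the authors' standard error in 27 of 27 recomputations with a pseudocount of 0.1 or 5 or with the test's own change, and that of Tubb6 ran from 1.12 to 1.21. The gain in the share of Tubb6, 3.54 percentage points, was 13.0 points within the beta pool and 5.36 points without Tuba1b, because the sums are smaller. It was 3.14 points with values multiplied by transcript length, a setting added after the data were seen. Share differences kept their sign in 44 of 44 recomputations, but not always their size. By a margin set for each isotype, the size counted as the same in 32 of the 44. That of Tuba1c, for example, was 3.39 points and became 1.45 points without Tuba1b. Both counts include the settings that add other alpha or beta tubulins or sum repeated symbols. No other alpha or beta tubulin has a row and no member's symbol repeats, so those settings could change nothing. With the unadjusted p in place of the adjusted one, 2 of 21 folding genes and 1 of 17 modifying enzymes passed. So did 1 of 24 associated proteins and 1 of 17 severing and nucleation genes, against 0 in each list at the adjusted threshold. Of all genes 4.81% passed the unadjusted and 0.181% the adjusted threshold, so nothing is read from these counts. No paired analysis was possible because the table holds 1 value per genotype, and leaving out each library was not run for the same reason. At a mean of 1.69 TPM, the low level of Tubb2b limits what can be seen, with a standard error of 0.98.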
